A study of Mus musculus with 4 samples.

Results

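H3K9me2 is described here at the promoters of 10 matrix metalloproteinase (Mmp) genes that lie side by side on mouse chromosome 9. The members are Mmp1a, Mmp1b, Mmp3, Mmp7, Mmp8, Mmp10, Mmp12, Mmp13, Mmp20 and Mmp27, chosen by gene name, and all 10 have a row among the 26354 promoters of the deposited table. H3K9me2 was measured by chromatin immunoprecipitation and sequencing (ChIP-seq) in aortas of male C57Bl/6J mice, in medial tissue used without culture after the adventitial and endothelial layers were removed by hand. The experiment was done 2 times independently (v102 and v134). Each time 1 library was made from immunoprecipitated chromatin and 1, the input, from chromatin before precipitation. The labels name no drug treatment and no allele, and neither the age of the mice nor the number of aortas in a library is given in the sources used here. The counts are reads within 1 kb on either side of each gene start.

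Matrix metalloproteinases are zinc-dependent enzymes that degrade collagen, elastin, proteoglycans and other parts of the extracellular matrix. They are made as inactive proenzymes, are activated by cleavage and are held in check by the Timp inhibitors. In the arterial wall they are known for their part in matrix remodelling, in migration of vascular smooth muscle cells and in plaque instability. Many of these genes are induced by inflammatory cytokines through AP-1 sites close to a TATA box. H3K9me2 is a histone mark of silent chromatin, written mainly by the methyltransferases Ehmt1 and Ehmt2.

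Summed over promoters, the ChIP libraries of v102 and v134 held 162233 and 229605 reads and the input libraries 619100 and 1084349, which is the depth that reached the table and not the sequencing depth. The median promoter had 4 and 5 reads in ChIP and 20 and 37 in input. Mitochondrial rows took 14.3% and 7.53% of the input reads but 0.200% and 0.175% of the ChIP reads. Of 7 promoters of smooth muscle genes, 3 (Myh11, Myocd and Lmod1) were below input and 1 (Smtn) was above it in the edgeR test of ChIP against input, in which 17% of all promoters were below and 18.6% above. Of 4 leukocyte genes 2 (Ptprc and Itgam) were above input, of 4 endothelial genes 1 (Pecam1) was below and of 3 fibroblast genes 1 (Pdgfra) was below. With 3 to 7 genes a list, nothing is read from these counts. A promoter mark does not measure expression, and a ratio from tissue cannot separate the share of cells that carry the mark from its amount per cell. The loci used as ChIP controls in the study had a ratio of ChIP to input reads of 0.0119 at Actb and 0.455 at Magea2.

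The 10 gene starts span 420 kb of GRCm38, in the order Mmp13, Mmp12, Mmp1b, Mmp3, Mmp1a, Mmp10, Mmp8, Mmp27, Mmp20 and Mmp7. All are on the plus strand except Mmp1b. The first gene, Mmp13, runs from position 7272514 to 7283331, and the last, Mmp7, from 7692090 to 7699585. Neighbouring starts are 12.9 to 71.9 kb apart, so no 2 windows of the members overlap, and no window overlaps that of another gene of the table that could be placed. The annotation used here (GENCODE M21) lists Mmp1a as a polymorphic pseudogene and the other members as protein-coding.

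The stretch just upstream of the start is shown for 6 members. At most members it holds matches to the AP-1 and TATA motifs, through which many Mmp genes are known to be induced. Matches to the AP-1 motif TGANTCA and to the TATA motif TATAAA, on either strand, are in capitals. The sequences are from RefSeq promoters of GRCm38.p6 and run 5′ to 3′ on the strand of the gene, from 100 bases before the start to base 10 of the transcript. They lie at chr9:7445722-7445831 for Mmp3, chr9:7502242-7502351 for Mmp10, chr9:7464041-7464150 for Mmp1a and chr9:7388017-7388126, minus strand, for Mmp1b. Mmp12 has 2 RefSeq starts, with stretches at chr9:7344297-7344406 and chr9:7347274-7347383, and Mmp8 is at chr9:7558329-7558438. Mmp3 and Mmp10 show an AP-1 match upstream of a TATA match. The TATA match lies 7 to 2 bases before the start at Mmp3 and 29 to 24 at Mmp10. Mmp1a and Mmp1b show how alike the paralogs are, Mmp12 shows that its starts differ, and Mmp8 shows a member without the AP-1 motif.
Mmp3: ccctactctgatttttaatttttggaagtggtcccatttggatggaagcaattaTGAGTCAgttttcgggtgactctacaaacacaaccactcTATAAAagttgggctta
Mmp10: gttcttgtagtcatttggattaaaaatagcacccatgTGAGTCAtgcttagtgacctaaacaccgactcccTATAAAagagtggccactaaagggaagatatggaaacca
Mmp1a: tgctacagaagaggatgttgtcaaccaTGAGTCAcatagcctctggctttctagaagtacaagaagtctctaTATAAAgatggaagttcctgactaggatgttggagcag
Mmp1b: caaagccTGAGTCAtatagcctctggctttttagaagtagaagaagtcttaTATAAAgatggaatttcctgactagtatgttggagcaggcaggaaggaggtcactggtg
Mmp12 (first start): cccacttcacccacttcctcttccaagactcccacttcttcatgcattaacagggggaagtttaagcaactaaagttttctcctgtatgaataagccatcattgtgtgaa
Mmp12 (second start): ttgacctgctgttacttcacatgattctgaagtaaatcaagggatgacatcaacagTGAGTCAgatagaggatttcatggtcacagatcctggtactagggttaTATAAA
Mmp8: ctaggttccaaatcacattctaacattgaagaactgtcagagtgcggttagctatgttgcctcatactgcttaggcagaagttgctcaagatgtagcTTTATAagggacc

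In the RefSeq windows from 250 bases before to 50 bases after the start, 8 of the 10 members held TGANTCA on at least 1 strand, compared with 7.81% of all 32851 promoter windows. The 2 members without a match were Mmp8 and Mmp27. In 7 members the match was TGAGTCA on 1 of the strands, found in 5.20% of all windows, while Mmp20 held TGAATCA. The TATA motif was found in 9 members and in 13.6% of all windows, and Mmp27 had none. At Mmp8 the match was on the opposite strand and spanned the start, and at Mmp12 it lay after the second start. The ETS-type motif AGGAAG was found in 7 members and in 35.4% of all windows. The kappaB consensus, the motif of NFκB, was found in Mmp12 only, at its first start, and in 8.46% of all windows. The member counts are by gene, with 2 windows each at Mmp12 and Mmp7, whereas the shares are by window. By window, 8 of the members' 12 held TGANTCA, 7 TGAGTCA, 9 TATAAA, 8 AGGAAG and 1 the kappaB consensus. All of these are matches of letters, not sites shown to be bound.

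**Figure D1:**
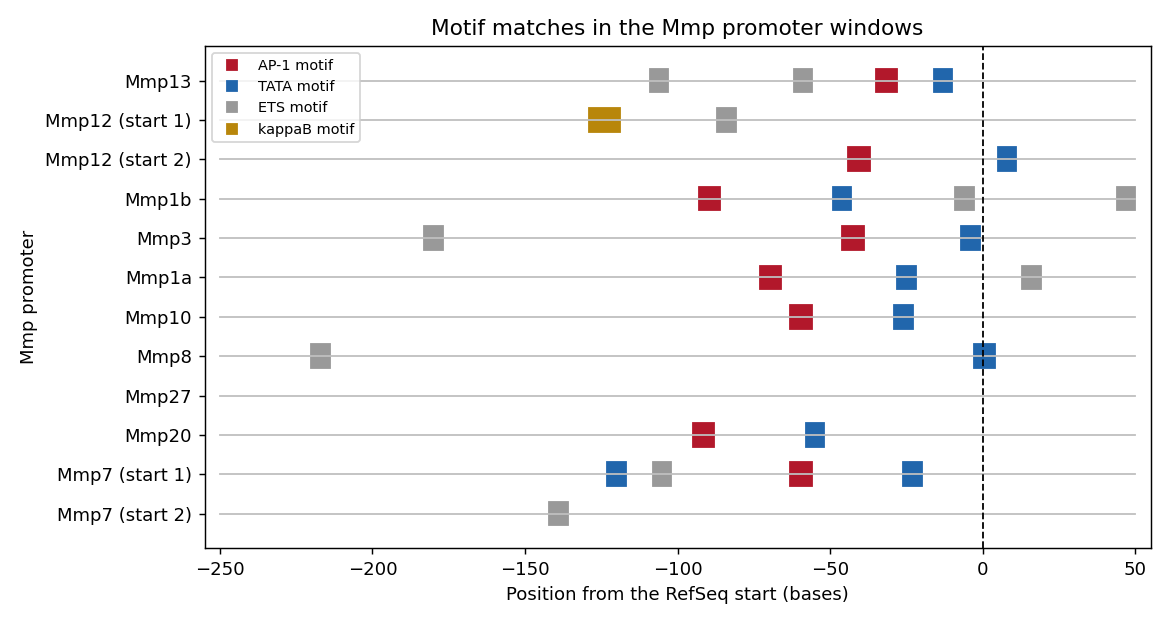
Positions of motif matches in the 12 RefSeq promoter windows of the 10 Mmp genes, in order of position, with 0 on the x axis (bases) at the RefSeq start and 1 line a window (Mmp12 and Mmp7 have 2 starts each). In the 8 windows that hold both, the AP-1 match (red) lies upstream of a TATA match (blue), and the Mmp27 window holds no match.

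The 2 starts of Mmp12 matter for what was counted. The start annotated by GENCODE, 7344381, is 16 bases from the first RefSeq start and 2993 bases from the second, which holds the AP-1 and TATA motifs. A window of 1 kb either side of the first start does not reach the second, and which start the authors counted is not given in the sources used here. For the other 9 members the nearest RefSeq start lay within 27 bases of the GENCODE start.

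The comparison of ChIP with input asks where H3K9me2 is enriched. At 6 neighbouring promoters, from Mmp13 to Mmp10, ChIP reads were above input, and so they were at Mmp20, whereas Mmp8, Mmp27 and Mmp7 did not pass the test. Thus 7 of the 10 members were above input and 0 below. The test was the quasi-likelihood test of edgeR, with p-values adjusted by Benjamini-Hochberg over all 26354 promoters and a threshold of 0.05. Of all promoters, 18.6% were above and 17% were below input. At an unadjusted p under 0.05, 0 members were below input. DESeq2 gave an adjusted p for 7 members, of which 4 were above and 0 below input, against 33.7% and 0.323% of the 8982 promoters that received one. Its filter on the mean scaled count left the other promoters without one. ChIP reads raise that mean, so promoters high in ChIP pass the filter more easily, and nothing is read from these counts. The median log2 fold change over input of the members was 1.49, compared with -0.35 over all promoters. The members are GC-poor, at 39.3% to 43.5% over their windows, against a median of 50.9%, and of the 2216 promoters within that GC range 42% were above input. When the trend of each library's counts with GC content was removed in edgeR, 3 members (Mmp12, Mmp1b and Mmp10) were above input and 0 below, against 11.3% and 8.53% of promoters. With a block for the experiment in place of the GC term, 6 were above and 0 below, against 15.8% and 8.3%. With both, Mmp10 alone was above and 0 were below, against 9.37% and 4.83%.

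**Figure D2:**
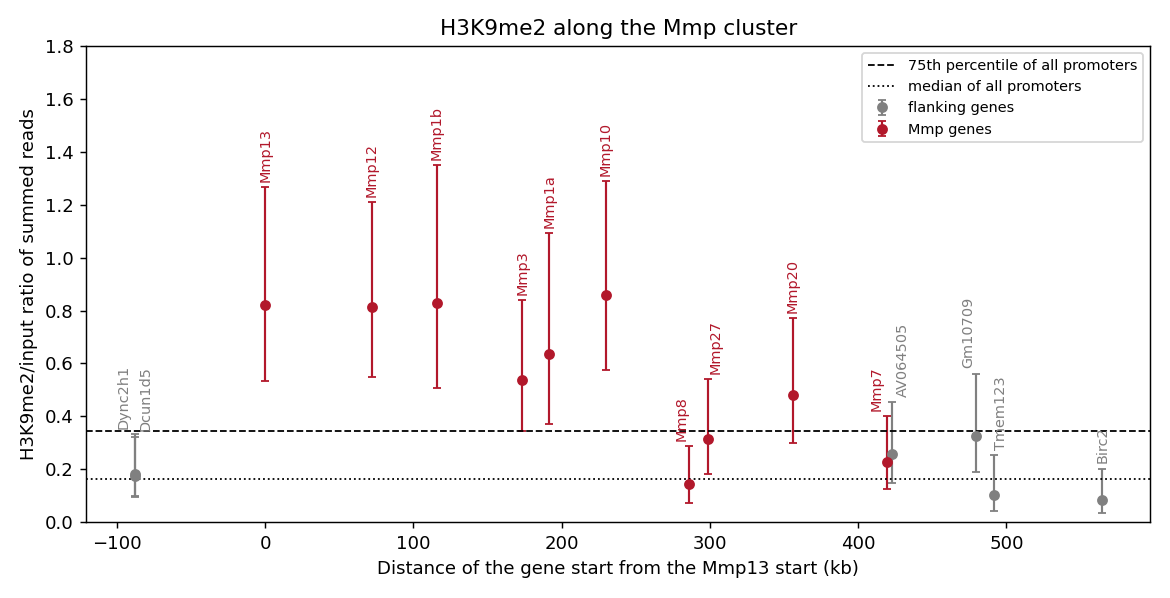
H3K9me2 ChIP reads over input reads, summed over experiments (y axis) by distance of the gene start from that of Mmp13 (x axis, kb), with 95% Wilson intervals that cover counting error only, for the 10 Mmp genes (red) and the nearest flanking genes that could be placed (grey). The 6 points from Mmp13 to Mmp10 lie between 0.537 and 0.860, all above the dashed 75th percentile of all promoters at 0.343, and Mmp8 lies at 0.145. Of the promoters in the GC range of the members, 51.4% are at or above the dashed line.

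Among the 4 genes of the collagenase group, 3 had high ratios and 1 did not. In v102 and v134 Mmp13 had 12 and 25 ChIP reads against 15 and 30 reads of input. The ratio of summed reads, as deposited by the authors without scaling for library size, was 0.822 at Mmp13 (95% Wilson interval 0.534 to 1.27, covering counting error only), and its log2 fold change over input was 1.97 (standard error 0.41, edgeR adjusted p = 2.79e-05). Mmp1a, the mouse counterpart of human interstitial collagenase, had 7 and 14 ChIP reads against 9 and 24 input reads, a ratio of 0.636 (0.371 to 1.09). Its paralog Mmp1b had 17 and 12 ChIP reads against 13 and 22 input reads, a ratio of 0.829 (0.509 to 1.35). The log2 fold change was 1.61 at Mmp1a (standard error 0.51, edgeR adjusted p = 0.00869) and 1.99 at Mmp1b (standard error 0.46, edgeR adjusted p = 0.000178). Mmp8, the neutrophil collagenase, had 4 and 5 ChIP reads against 15 and 47 input reads. At 0.145 its ratio was below the median of all promoters, 0.162, with an interval of 0.0731 to 0.288 that includes it, and its log2 fold change was -0.48 (standard error 0.58, edgeR adjusted p = 0.524). With the GC trend removed the log2 fold change was 0.90 at Mmp13 and 0.90 at Mmp1a, and neither passed the test (edgeR adjusted p = 0.0926 and 0.180), while Mmp1b passed it at 1.33 (edgeR adjusted p = 0.0208). The Mmp8 interval lay below the intervals of the other collagenases.

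Mmp1a and Mmp1b had the fewest input reads of the 10 members, 33 and 35 in sum, compared with 45 to 62 at the other 8 and 57 at the median promoter. Over 274 aligned bases of their RefSeq promoter windows the pair was 89.1% identical, whereas no other pair of members exceeded 66.4%. Of all stretches of 75 bases, the length of a read, 13.6% in the Mmp1b window and 7.27% in the Mmp1a window occurred again elsewhere on the chromosomes. The same share was at most 0.571% at the other 8 members. Whether reads of such stretches were kept or dropped is not given in the sources used here, so the values at this pair are less certain. Without the pair, the pooled ratio of the 8 remaining members was 0.503 (0.428 to 0.592), compared with 0.535 (0.461 to 0.620) for all 10.

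The stromelysins, which degrade proteoglycans and activate other proenzymes, were both above input. Mmp10 had the highest ratio of summed reads in the cluster, 0.860 (0.574 to 1.29), from 22 and 21 ChIP reads against 12 and 38 input reads. That rank rested on experiment v102, since in v134 Mmp13, Mmp12 and Mmp1a were higher. Its log2 fold change was 2.09 (standard error 0.39, edgeR adjusted p = 2.67e-06), and it was above input in each of the 7 fits in which it was tested. At Mmp3 the ratio was 0.537, from 10 and 19 ChIP reads against 15 and 39 input reads, and the edgeR adjusted p of 0.00657 rose to 0.523 in the fit that removed the GC trend. Of the 6 promoters from Mmp13 to Mmp10, Mmp3 was the lowest.

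Mmp12, the macrophage elastase, had 14 and 30 ChIP reads against 18 and 36 input reads, a ratio of 0.815. Its log2 fold change was 1.95 in the test without adjustment for GC content and 0.99 with it (edgeR adjusted p = 9.00e-06 and 0.0434). With the experiment block added, the GC-adjusted p was 0.0547.

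The remaining enzymes lie towards the Mmp7 end. Mmp20, which processes enamel matrix in developing teeth, had 11 and 14 ChIP reads against 24 and 28 input reads, a ratio of 0.481 (0.300 to 0.771). Its log2 fold change was 1.18 (standard error 0.44, edgeR adjusted p = 0.0282), and a block for the experiment moved the adjusted p to 0.0589. Mmp27, a little-studied member, had 8 and 9 ChIP reads against 24 and 30 input reads, a ratio of 0.315 (0.184 to 0.539). Mmp7, or matrilysin, which lacks the hemopexin domain of the other members, had 8 and 6 ChIP reads against 15 and 47 input reads, a ratio of 0.226 (0.127 to 0.40). The log2 fold changes of Mmp27 and Mmp7 were 0.57 and 0.16 (standard errors 0.50 and 0.51, edgeR adjusted p = 0.359 and 0.823). In the GC-adjusted fit both were negative, at -0.45 and -0.64 (edgeR adjusted p = 0.533 and 0.368).

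**Figure D3:**
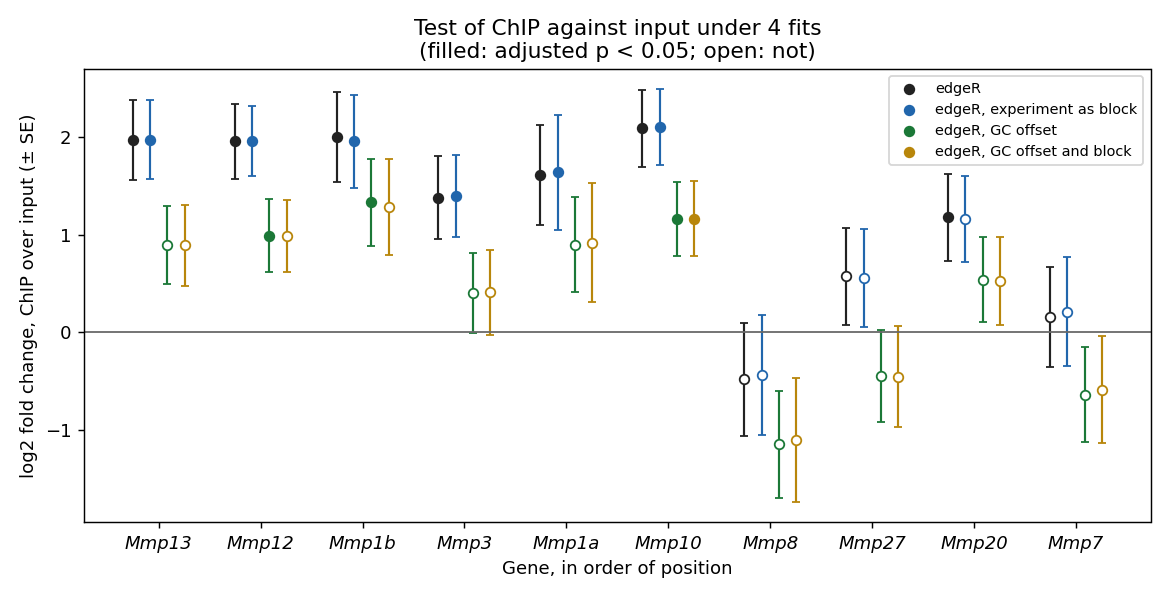
Log2 fold change of ChIP over input (y axis, ± standard error) at each member in 4 edgeR fits, with filled points for an adjusted p under 0.05. From Mmp13 to Mmp10 the fits without GC adjustment (black and blue) lie between 1.38 and 2.10, and those with it (green and gold) between 0.40 and 1.33.

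In order of the ratio of reads summed over both experiments, the members ran Mmp10, Mmp1b, Mmp13, Mmp12, Mmp1a, Mmp3, Mmp20, Mmp27, Mmp7 and Mmp8. The intervals of any 2 next to each other in this order overlapped, which does not test whether such neighbours differ. The order was not the same in each experiment. In v134 the scaled ratio, which is relative to the average of the table, was 3.94 at Mmp13 and Mmp12 and 2.75 at Mmp1a, all above Mmp10 at 2.61, and Mmp20 at 2.36 was above Mmp3 at 2.30. The interval of Mmp8, which ends at 0.288, lay below those of the 7 highest members, of which Mmp20 starts lowest, at 0.300. By position, 1 of the 9 pairs of neighbouring promoters differed. The ratio of Mmp10 was 5.92 times that of Mmp8, whose start is 56.1 kb away (two-sided Fisher's exact test on the reads of both experiments, p = 3.65e-06, or 3.28e-05 adjusted over 9 pairs). The pair also differed within experiment v102 (same exact test, adjusted p = 0.0339) and within experiment v134 (adjusted p = 0.0134). For the other 8 pairs the adjusted p was between 0.284 and 1, and the intervals of the odds ratios were wide, from 0.498 to 1.95 between Mmp12 and Mmp1b and from 0.947 to 4.90 between Mmp20 and Mmp7. The test treats each read as a separate molecule and does not include the spread over experiments.

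The break between Mmp10 and Mmp8 separates 6 promoters with a pooled ratio of 0.749 (0.625 to 0.898) from 4 with 0.283 (0.215 to 0.372). Mmp3 at 0.537 was the lowest of the 6 and Mmp20 at 0.481 the highest of the 4. The sides overlapped in v134, where the scaled ratio was 2.36 at Mmp20 and 2.30 at Mmp3, and also after removal of the GC trend, where the mean log2 ratio was 0.59 at Mmp20 and 0.44 at Mmp3. On the log2 scale the pooled difference was 1.33 in experiment v102 and 1.52 in experiment v134. This division was made after the values were seen and was not tested. GC content ranged from 39.3% to 43.2% in the 6 windows and from 39.8% to 43.5% in the 4. Over the 10 members, which share the same libraries, the Spearman correlation between GC content and the mean log2 ratio was -0.25, and over all 22299 promoters with a GC value outside the mitochondrial genome it was -0.55.

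To compare the experiments, ChIP and input reads were each divided by their library's total over the promoters, so that a scaled ratio of 1 is the average of the table. These totals include the mitochondrial rows, which took 14.3% of the input reads in v102 and 7.53% in v134 but little of the ChIP reads. Every scaled ratio is therefore higher than it would be without these rows, more so in v102. The scaled ratio was above 1 in both experiments at all members except Mmp8 and Mmp7, which fell below it in experiment v134. Mmp3 and Mmp1a were close to each other in the 2 experiments, with 2.54 and 2.30 at Mmp3 and 2.97 and 2.75 at Mmp1a. Mmp10 was at 7.0 (3.51 to 13.9) in experiment v102 and 2.61 (1.54 to 4.42) in experiment v134. Mmp7 was at 2.04 (0.884 to 4.68) and 0.603 (0.264 to 1.38). For both genes the intervals of the 2 experiments overlapped, which does not test whether the experiments differ. The SDs of their log2 ratios over the experiments, 0.95 and 1.16, were the largest of the members. The median SD was 0.29 over the members and 0.50 over all promoters. Among all promoters, 17.9% were in the top quartile of the log2 ratio in both experiments, and of the members 7 were. They are the genes that were above input, a count that rests on the same reads. Of the 2216 promoters in the GC range of the members, 51.4% were at or above the 75th percentile of the ratio of summed reads. Mmp7 was in the top quartile of experiment v102, at percentile 80.5, but at percentile 45.6 in experiment v134.

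**Figure D4:**
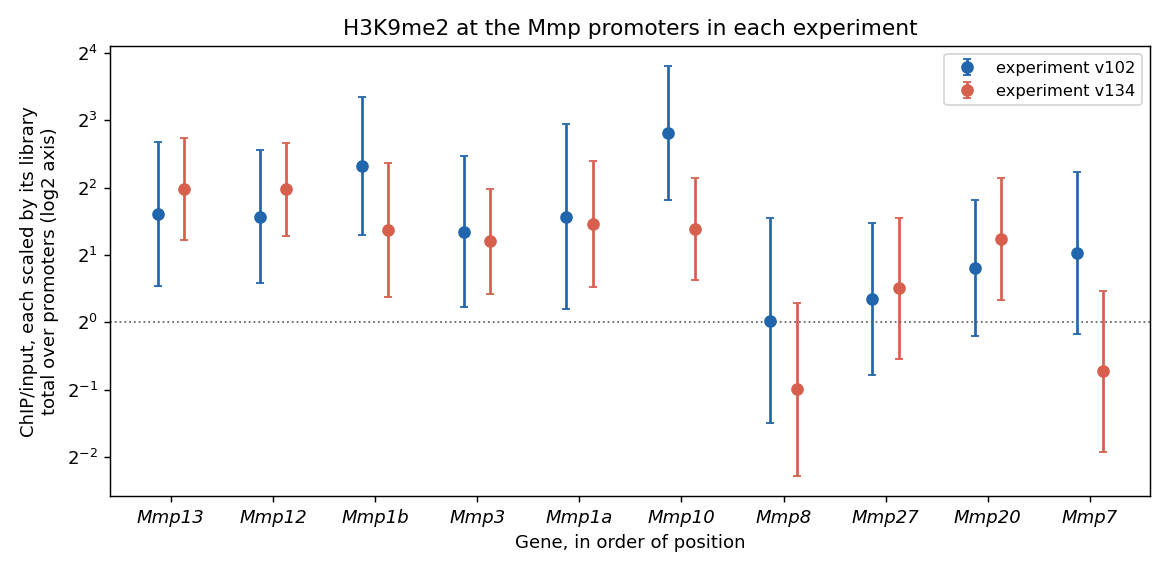
Scaled ratio of ChIP to input reads (y axis, log2 axis, where 1 is the average of the table) at the 10 Mmp promoters in experiments v102 (blue) and v134 (orange), with 95% Wilson intervals for counting error. At the 6 promoters from Mmp13 to Mmp10 every point lies at 2.30 or higher, and at Mmp8 and Mmp7 the points of experiment v134 lie at 0.502 and 0.603.

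Pooled over the 10 members there were 113 and 155 ChIP reads against 160 and 341 input reads. The pooled scaled ratio was 2.70 (2.12 to 3.43) in experiment v102 and 2.15 (1.78 to 2.59) in experiment v134, or 1.27 ± 0.23 on the log2 scale (SD, n = 2). No single member decided this value, which was between 1.15 without Mmp10 and 1.39 without Mmp8. The 13 Mmp promoters elsewhere in the genome had pooled scaled ratios of 0.794 and 0.468. The cluster was thus 3.39 and 4.58 times as high in the 2 experiments, a difference of 1.98 ± 0.31 on the log2 scale (SD, n = 2). With 2 experiments the smallest p an exact test of paired values can give is 0.5, so this difference was not tested. As medians of single promoters, the cluster members exceeded the other Mmp promoters by 2.47 on the log2 scale, and by 0.89 with the GC trend taken out.

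Among the 13 other Mmp promoters none was above input and 3 were below, against 18.6% and 17% of all promoters. The 3 were Mmp14, which encodes a membrane-type enzyme that activates the Mmp2 proenzyme, Mmp17 and Mmp28. Their ratios were 0.0286, 0.0308 and 0.0429. The highest was Mmp9, a gelatinase, at 0.40 (edgeR adjusted p = 0.0628), followed by Mmp19 at 0.270, and the other gelatinase, Mmp2, was at 0.137. In both experiments all 13 scaled ratios lay below those of the 6 promoters from Mmp13 to Mmp10. They were not all below Mmp20, since in v102 Mmp9 was at 2.12 and Mmp16 at 1.78, compared with 1.75 at Mmp20. Of the 4 Timp inhibitors none passed the test in either direction, with ratios from 0.188 at Timp4 to 0.517 at Timp1 (edgeR adjusted p = 0.0606 at Timp1). Of 5 genes of the plasmin system, whose protease plasmin activates several Mmp proenzymes, none passed it either, with ratios from 0.0714 at Plau to 0.261 at Plaur.

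**Figure D5:**
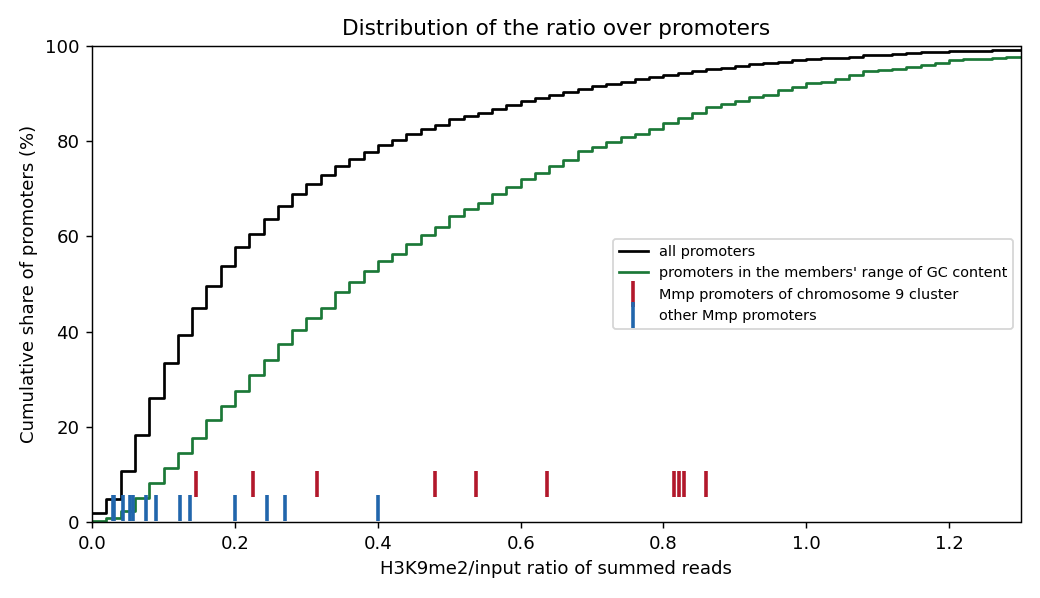
Cumulative share of promoters (y axis, %) by H3K9me2/input ratio (x axis), for all 26354 promoters (black) and for the 2216 with GC content in the range of the members (green), with the 10 members (red ticks) and the 13 other Mmp promoters (blue ticks). The median ratio was 0.162 over all promoters, 0.356 in the GC range and 0.587 over the members.

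No other gene of the table starts between the first and the last member. On the Mmp13 side the nearest rows were Dcun1d5 and Dync2h1, whose starts are 88.0 and 88.1 kb from Mmp13 and whose windows overlap, so that they share reads. Their ratios of summed reads were 0.176 and 0.182, but the experiments differed, with scaled ratios of 0.294 and 0.305 in v102 and 1.12 and 1.15 in v134. Ddi1, whose start is 1003 kb from that of Mmp13, had 19 and 22 ChIP reads against 20 and 44 input reads, a ratio of 0.641, and was above input (edgeR adjusted p = 0.000241). On the Mmp7 side the antisense gene AV064505, 3.54 kb beyond the Mmp7 start, had a ratio of 0.259, and the ratios then ran 0.327 at Gm10709, 0.104 at Tmem123, 0.219 at CT030639.1 and 0.0833 at Birc2. Gm10709 is a processed pseudogene, and 24.7% of the stretches of 75 bases in its window occurred again elsewhere, so its value is less certain. Of all promoters 18.6% were above input and 17% below, and of the 10 flanking promoters, 5 on each side, only Ddi1 passed the test. Their pooled scaled ratio was 1.11 (0.831 to 1.47) in experiment v102 and 0.972 (0.770 to 1.23) in experiment v134, below the intervals of the 10 members in both experiments. Reads shared by Dcun1d5 and Dync2h1 enter this pool more than once. It also includes Pdgfd and Casp12, whose starts are 1104 and 1927 kb from Mmp13. Dcun1d5, Dync2h1, Tmem123 and Birc2 are richer in GC than the members, at 49.5% to 53.7%, while AV064505 and Gm10709 are at 40.0% and 42.9% and Ddi1 is at 36.8%.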

How the data were processed

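The authors trimmed paired-end reads (Trim Galore 0.4.2, Cutadapt 1.9.1), aligned them to GRCm38 (Bowtie2 2.2.7, per the submitters' processing notes) and counted reads within 1 kb of gene starts with SeqMonk. They deposited raw read counts for 4 libraries, sums per kind of library and a ratio of these sums, after removing genes with few input reads. The lowest sum of input reads in the table is 21. The annotation release used and the handling of duplicates and ambiguous reads are not given in the sources used here. Reads are not independent molecules, so intervals cover counting error only.

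The gene names and lists were chosen with earlier results of these data known. The comparison within the GC range of the members, the motif form TGAGTCA and the count of runs of rows were added after the values were seen. Counts of all 26354 promoters were compared with edgeR 4.0.16 (R 4.3.3) with TMM normalization, and with DESeq2 1.42.0 as an alternative. A standard error is the log2 fold change divided by the square root of F. ChIP and input of 1 experiment belong together, which makes the libraries paired; the differences between experiments of ChIP and of input had a correlation of 0.0836 across promoters. The 2 experiments are described as independent, and p-values rest on 2 libraries against 2. Log2 ratios of single promoters used a pseudocount of 1 read, added before scaling. It raises the ratio where ChIP reads are fewer than input reads. At Mmp8 in v102 the scaled ratio was 1.02 and the log2 ratio with the pseudocount 0.25. Of the symbols, 22329 (84.7%) matched 1 GENCODE M21 gene, and GC content was taken from the window around its start. For the GC fit, the mean count of each library in 50 bins of GC content was smoothed by lowess (fraction 0.3) and used as an offset. The genes named are the members, 5 rows on either side, the other Mmp, Timp and plasmin system genes, the markers and the controls. Python 3.11.15, scipy 1.17.1, statsmodels 0.14.6, Biopython 1.88 and matplotlib 3.10.9 were used.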

Additional observations from a re-analysis of the deposited data

How the results depend on the processing

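The number of members above input was 7, against 18.6% of all promoters. It was 6 with scaling by library totals (16.3% of promoters) and 7 without the mitochondrial rows (18.9%). With the experiment number as a replicate block it was 6, without Mmp20 (15.8%). It was 3 with the GC trend of each library removed (11.3%) and 1 with that and the replicate block (9.37%). By DESeq2 it was 4, against 33.7% of the promoters with an adjusted p, and 3 members (Mmp1a, Mmp8 and Mmp7) were left without one. With at least 20 reads in each input only Mmp27 and Mmp20 were tested and 1 passed, against 17.5% of promoters above input. The number below input was 0 in each of these fits, against shares of promoters from 0.323% (DESeq2) to 21.5% (library totals). The log2 fold change changed sign at Mmp27 (-0.45, and -0.46 with the block) and Mmp7 (-0.64, and -0.59 with the block) with the GC trend removed, where neither passed the test. The GC fit tested 22299 promoters and moved the median of all promoters on the log2 scale from -0.35 to -0.16, and library totals moved it to -0.50. At an unadjusted p under 0.05, 1 member, Mmp8, was below input with the GC trend removed (log2 fold change -1.15, edgeR adjusted p = 0.121).

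The pooled log2 ratio of the members, 1.27, was 1.44 as a median of members with a pseudocount of 1 read and 1.56 with 5 reads. It was 1.10 without the mitochondrial rows and 1.40 with TMM factors. It was 0.75 over the 2 members that reach 20 reads in both inputs and 0.71 as a median with the GC trend removed. The difference from other Mmp promoters, 1.98, was 2.47 as a difference of medians, 1.47 with a pseudocount of 5 reads and 0.89 with the GC trend removed. The value of 0.75 pools Mmp27 and Mmp20 only, so it differs by the members it covers. The values without mitochondrial rows and with TMM factors differ by how the libraries were scaled. Apart from these and the pseudocount, which is added before scaling, the cause of the shifts was not tested. Without either experiment the pooled ratio was 1.10 or 1.43 and the difference 1.76 or 2.2, and edgeR was not run on the single pair of libraries that remains, which has no residual degrees of freedom. At the median promoter 4 and 5 ChIP reads limit what can be resolved. The ratio of Mmp20 to Mmp7, 2.13 over both experiments, was 0.859 in v102 and 3.92 in v134, where the exact test gave an adjusted p of 0.0522.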

Other observations

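The 6 promoters from Mmp13 to Mmp10 are consecutive rows of the deposited table, all at or above the 75th percentile of the ratio. Of the promoters in the GC range of the members, 51.4% are at or above it. The table is ordered by position, with 98.8% of neighbouring rows on 1 chromosome in rising order of their gene starts. It holds 160 runs of at least 6 such consecutive rows, which take up 8.97% of all rows. The longest run has 72 rows. Olfactory or vomeronasal receptor genes are present in 59 of the 160 runs, and 101 runs, that from Mmp13 to Mmp10 among them, hold none. A run counts rows and not bases, and promoters that share reads or lie close together lengthen it.

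Repeat-masked sequence took between 8.45% and 32.9% of the member windows, with a median of 16.6%, compared with a median of 13.9% over all windows. The windows held 3 to 21 CpG dinucleotides, compared with a median of 56. The median over the members was 12.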
